A study of Gallus gallus with 89 samples.

Results

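The collagen, laminin and integrin genes of 89 single cells from the chick amniogenic somatopleure are described here. Members were every gene row whose symbol has the form of a collagen chain, a laminin alpha, beta or gamma chain, or an integrin alpha or beta chain, which gave 43 of 13823 gene rows. They comprised 22 collagen rows, 7 laminin rows and 14 integrin rows. One of the 14, ITGB3BP, encodes a centromere protein and is no integrin chain, so 42 rows are chains of the families. Together the members took 0.194% of gene reads. Each was detected in at least 1 cell, 8 in at least 50% of the cells and 16 in fewer than 10%.

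The amniogenic somatopleure is the sheet of ectoderm and lateral plate mesoderm that folds over the embryo as the amnion. All cells came from wild-type, untreated embryos at embryonic day 1.5, stage 10, with the grafts of more than 15 embryos pooled into 1 cell suspension. Single cells were caught on a microfluidic array, and read counts per gene were scaled to CPM, the counts of a cell divided by its total on genes and brought to a common library size. The series names no groups, and the question put to it here is which chains are found together in the cells of each layer.

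Collagens are secreted as trimers of alpha chains, of which those of collagens I, III and V build fibrils and those of collagen IV the network of basement membranes. Laminins are trimers of 1 alpha, 1 beta and 1 gamma chain that polymerise on the cell surface, and the alpha chain largely sets which receptor binds them. Integrins are dimers of 1 alpha and 1 beta chain, most alpha chains named here pairing with beta1. In early embryos the epithelium rests on a laminin and collagen IV sheet, while the fibrillar collagens are made mainly by mesenchyme.

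The cells were compared in 3 classes. Ectoderm-state cells, 27 of 89 (30.3%, exact 95% interval 21.03 to 40.99%), reached 10 CPM with at least 1 read in 2 or more of CDH1, TFAP2A and CLDN3. CDH1 encodes E-cadherin, TFAP2A a regulator of surface ectoderm and CLDN3 a tight junction protein. The 62 other cells comprised 41 that detected CDX2, a homeobox gene of caudal and extra-embryonic tissue, and 21 that did not. The pool is 1 sample, in which cells are no replicates, so differences are described by size and no p-value is given. SDs are over cells, and intervals cover counting error only.

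The classes were checked against markers that took no part in choosing them. Of 9 other ectoderm markers, ectoderm-state cells detected a median of 7, against 3 in the CDX2-detected and 3 in the CDX2-undetected other cells. Of 10 lateral plate mesoderm markers the medians were 1, 7 and 7. The ectoderm markers KRT18 and KRT19 did not separate the classes, each being detected in all 27 ectoderm-state and in 58 of 62 other cells. EPCAM was detected in all 27 ectoderm-state cells, in 17 of 41 CDX2-detected and in 11 of 21 CDX2-undetected cells, and PRRX1 in 5 of 27, 38 of 41 and 17 of 21, so the classes overlapped in single markers. Median reads per cell were 1545740, 1407460 and 1464880, within a range over all cells of 328645 to 2381723, and median numbers of genes with a read were 5476, 5759 and 5402.

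Some cells stood apart. In 6 cells (1 ectoderm-state, 2 CDX2-detected and 3 CDX2-undetected) fewer than 3000 genes had a read or over 20% of reads were mitochondrial; they detected a median of 2.5 members, against 13 in the rest. In 5 cells (0, 1 and 4) at least 5 of 11 endothelial markers were detected. The summed level of these markers was 0 to 236 CPM in ectoderm-state cells (median 29.6), 0 to 8031 CPM in CDX2-detected cells (median 40.8) and 0 to 10199 CPM in CDX2-undetected cells (median 192). CDH5, which encodes the cadherin of endothelium, was detected in 0 of 27, 2 of 41 and 5 of 21 cells. Some results on members are also given without such cells, while the lists of markers and of genes outside the families were read with all cells only. Cell titles began with X09 or X29, whose meaning the labels do not give. X09 supplied 14 ectoderm-state, 33 CDX2-detected and 11 CDX2-undetected cells and X29 13, 8 and 10, so the last comparison is unevenly spread over the prefixes.

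At the edge of the ectoderm rule, the cell just inside had 12.5 CPM for its second marker, with 7 mesoderm markers and 3 of the 5 chains of collagens I, III and V. The cell just outside, a CDX2-detected X29 cell, had 9.46 CPM, with 8 mesoderm and 6 ectoderm markers and all 5 of those chains. The next cell outside had 8.0 CPM, with 1 mesoderm and 6 ectoderm markers, EPCAM at 1274 CPM and 1 of those chains, so a cell with mostly ectoderm markers stands among the others.

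A member was called when its mean CPM, with 1 CPM added to each class, differed at least 2-fold, with X09 and X29 cells each showing the direction, and the share of detecting cells differed by at least 20 percentage points (or was at least 80% in both classes). Set against the other cells, 4 of 43 members were higher in the ectoderm state (COL14A1, COL4A2, COL9A1 and ITGA6), where 3.75% of all gene rows and 5.31% of the measured ones were. Lower were 9 (COL1A1, COL1A2, COL3A1, COL5A1, COL5A2, ITGA4, ITGA9, ITGAV and LAMA4), where 3.47% of all gene rows and 4.91% of the measured ones were. A gene was measured when detected in at least 10% of the cells of either class. A further 17 met the rule in neither direction and 13 were detected in under 10% of both classes. The median log2 ratio over the 43 rows was -0.12, beside -0.09 over all rows. Over measured rows alone it was -0.18 for the members and -0.027 for all genes. Without the 6 poor cells and the 5 cells with endothelial markers the counts were again 4 and 9. Among markers of other cell types, the neural plate gene SOX3 was higher in the ectoderm state (12 of 27 and 2 of 62 cells). NCAM1, the other of 2 measured neural plate genes, was not called (10 of 27 and 21 of 62, means 26.9 and 43.7 CPM). The 1 measured blood gene, HBZ, was lower (0 of 27 and 16 of 62). Of 9 measured endothelial genes 1 was lower, EGFL7 (1 of 27 and 32 of 62). The other 8 met the rule in neither direction, among them PECAM1 (12 of 27 and 17 of 62). The part of all these markers in the members' values was not tested.

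**Figure D1:**
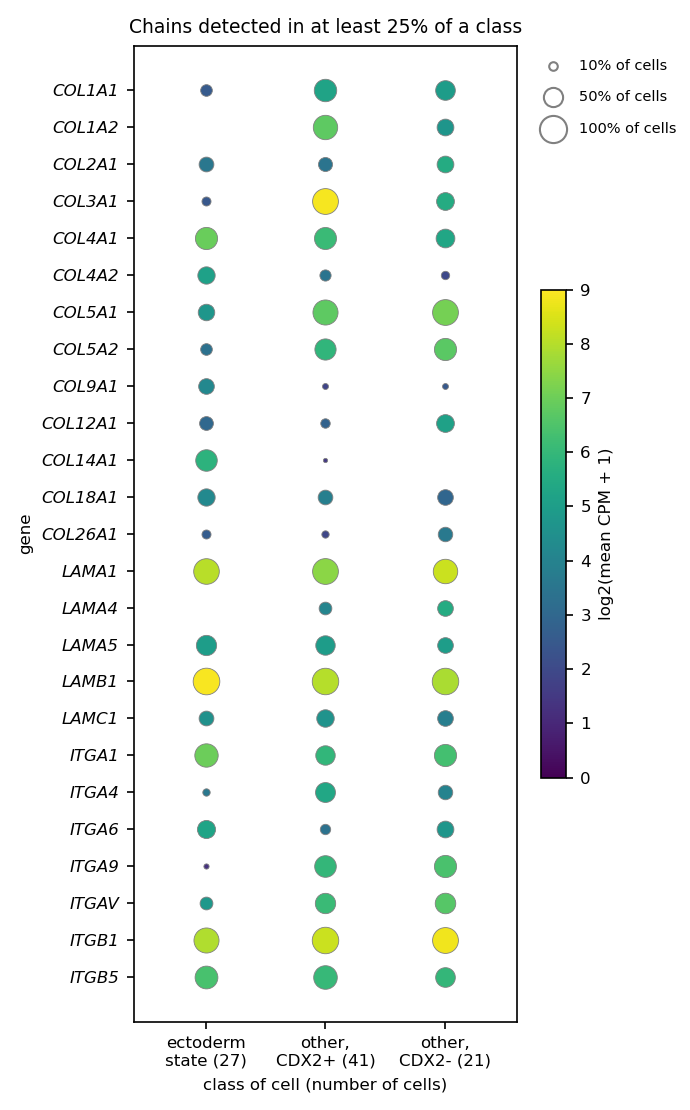
Share of cells (%, point size) that detected a chain at 10 CPM, for ectoderm-state, CDX2-detected other and CDX2-undetected other cells. Colour gives the log2 of the class mean CPM + 1. Chains detected in few cells of every class are not shown, nor is ITGB3BP. COL3A1 and COL1A2 stand at 37 and 33 of 41 CDX2-detected cells and at 3 and 0 of 27 ectoderm-state cells, COL14A1 at 17 of 27 ectoderm-state cells and 1 of 62 others, and LAMB1, LAMA1 and ITGB1 are high in all 3 classes.

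The fibrillar chains of collagens I, III and V were all lower in the ectoderm state. COL3A1, the single chain of collagen III, which is abundant in distensible tissue, was at 0 to 75.9 CPM in ectoderm-state cells (median 0), at 0 to 1484 CPM in CDX2-detected cells (median 419) and at 0 to 244 CPM in CDX2-undetected cells (median 0). The highest ectoderm-state cell thus lay below the CDX2-detected median, although the lowest cells of all classes were at 0. Its mean was 59.8-fold lower in the ectoderm state than in the other cells, and 120-fold lower without 1 ectoderm-state cell. COL1A2, the alpha2 chain of collagen I, had no read in any of the 27 ectoderm-state cells (3 counts of 27 give a limit of 11.1% of cells, and the exact interval one of 12.8%). It was detected in 33 of 41 CDX2-detected cells (0 to 335 CPM, median 94.4) and in 8 of 21 CDX2-undetected cells (0 to 98.9 CPM, median 0).

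COL1A1, the alpha1 chain that makes up the larger part of the collagen I trimer, was less sharply divided. It was detected in 5 of 27 ectoderm-state cells (0 to 29.9 CPM, median 0), in 28 of 41 CDX2-detected cells (0 to 144 CPM, median 29.9) and in 11 of 21 CDX2-undetected cells (0 to 115 CPM, median 13.9). The ectoderm-state cells that had it were few and low, and the mean was 5.94-fold lower than in the other cells. None of the 5 detected COL1A2 with it, so no ectoderm-state cell held both chains of collagen I.

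Collagen V starts and limits the width of collagen fibrils. COL5A1 was detected in 10 of 27 ectoderm-state cells (0 to 132 CPM, median 4.62), in 35 of 41 CDX2-detected cells (0 to 313 CPM, median 96.1) and in 19 of 21 CDX2-undetected cells (0 to 384 CPM, median 121.3). COL5A2 was detected in 5 of 27 (0 to 125 CPM, median 0), in 25 of 41 (0 to 255 CPM, median 25.6) and in 14 of 21 cells (0 to 516 CPM, median 38.3). Unlike COL3A1 and COL1A2, neither met the rule between CDX2-detected and CDX2-undetected cells. The means were 4.57-fold (COL5A1) and 7.24-fold (COL5A2) lower in the ectoderm state than in the other cells, and for COL5A2 12.7-fold lower without 1 ectoderm-state cell at 125 CPM. The COL5A1 call was lost in 1 of 16 alternatives, at a limit of 1 read, since many ectoderm-state cells had reads under 10 CPM. COL3A1 and COL5A2 are neighbouring genes, with no coding gene between them in the RefSeq order of the GRCg7b assembly, yet only COL3A1 met the rule with CDX2.

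Counted per cell, the 5 chains COL1A1, COL1A2, COL3A1, COL5A1 and COL5A2 (a set chosen after their values were seen) had a median of 1 detected in ectoderm-state, 4 in CDX2-detected and 3 in CDX2-undetected cells. Among ectoderm-state cells 11 detected none, 10 detected 1, 5 detected 2 and 1 detected 3. That last cell is the one just inside the class rule, with 7 mesoderm markers. At least 4 chains were detected in 0 of 27 ectoderm-state cells, in 32 of 41 CDX2-detected cells and in 8 of 21 CDX2-undetected cells. Of the 5 other cells with none, 4 were among the poor cells. Ectoderm-state cells with none had a median of 5353 genes with a read and those with at least 1 a median of 5788, and the part of depth in these counts was not tested.

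**Figure D2:**
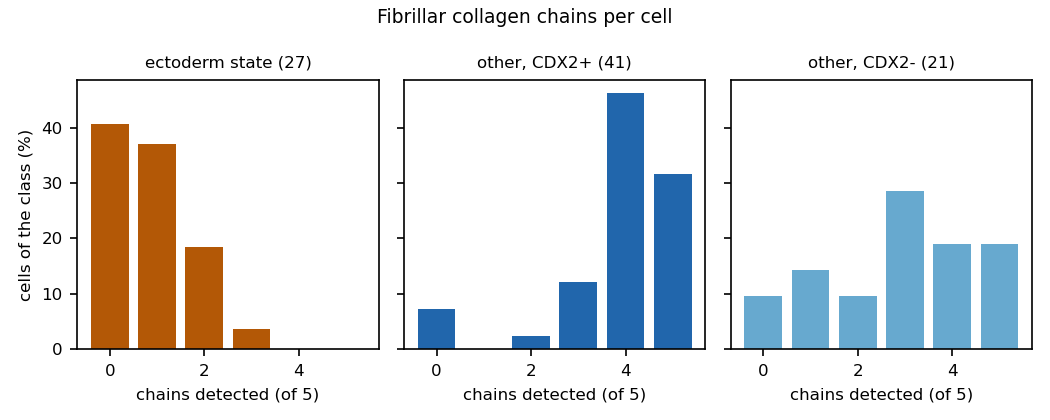
Number of the 5 chains of collagens I, III and V detected per cell (x axis) against the share of cells in each class (%, y axis). Ectoderm-state cells lie at 0 to 3 chains, and 32 of 41 CDX2-detected cells lie at 4 or 5.

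COL2A1, a fibrillar collagen best known from cartilage and notochord, was detected in 8 of 27 ectoderm-state cells, 11 of 41 CDX2-detected cells and 8 of 21 CDX2-undetected cells, with maxima of 77.3, 96.3 and 391 CPM, and met the rule in neither comparison. All 8 ectoderm-state cells with COL2A1 were among the 20 of that class without CDX2. The classes overlapped up to 77.3 CPM, and 3 CDX2-undetected cells, at 102, 149 and 391 CPM, lay above every cell of the other classes. Without the poor cells and those with endothelial markers, COL2A1 was called lower in CDX2-detected than in CDX2-undetected cells.

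COL14A1 was the reverse of the fibrillar chains. It encodes a collagen that lies along fibrils and helps to organise them. It was detected in 17 of 27 ectoderm-state cells (0 to 330 CPM, median 35.8), in 1 of 41 CDX2-detected cells (0 to 64.04 CPM, median 0) and in 0 of 21 CDX2-undetected cells. Its ectoderm-state mean of 53.9 ± 72.6 CPM (SD, n = 27 cells) was 24.3-fold that of the other cells, at 1.26 ± 8.20 CPM (SD, n = 62), and 44.7-fold without the 1 detecting other cell of 64.04 CPM. The call held in all 16 alternatives. Within the ectoderm state it was found in 5 of 7 cells with CDX2 and in 12 of 20 without.

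COL9A1, a chain of collagen IX, which also sits on fibrils and is known from cartilage and the eye, was detected in 9 of 27 ectoderm-state cells (0 to 166 CPM, median 5.82) and in 3 of 62 others (0 to 94.9 CPM, median 0). Its partner chains were rarer, COL9A2 in 2 of 27 and 2 of 62 cells and COL9A3 in 1 of 27 and 1 of 62, and 1 ectoderm-state cell detected all 3. The mean was 4.32-fold higher over both prefixes, but the log2 ratio was 0.33 in X29 cells alone. Most of the X29 other-cell mean of 5.37 CPM came from the cell at 94.9 CPM, a poor cell with endothelial markers. Without that cell the mean was 6.71-fold higher over both prefixes. With it, the call ended on leaving out 1 X29 ectoderm-state cell, at 4.08-fold, the X29 means then being 3.95 and 5.37 CPM. COL12A1, a relative of COL14A1, was lower in CDX2-detected than in CDX2-undetected other cells and is described with that comparison.

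Among the basement membrane collagens, the alpha1 and alpha2 chains of collagen IV form 1 trimer and are encoded by neighbouring genes, with no coding gene between them in the GRCg7b order. COL4A2 was detected in 11 of 27 ectoderm-state cells (0 to 185 CPM, median 1.85), in 7 of 41 CDX2-detected cells (0 to 150 CPM, median 0) and in 2 of 21 CDX2-undetected cells (0 to 37.1 CPM, median 0). Its mean was 4.07-fold higher in the ectoderm state than in the other cells, with overlap between the classes, and the call held in all 16 alternatives. COL4A1 was detected in 18 of 27 (0 to 625 CPM, median 81.3), 27 of 41 (0 to 724 CPM, median 21.8) and 10 of 21 cells (0 to 258 CPM, median 6.48). Its mean of 122 ± 149 CPM in the ectoderm state stood beside 57.5 ± 113 CPM in the other cells, but the shares of detecting cells were too alike for a call.

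The pair was found together more often in the ectoderm state. There 11 cells detected both chains, 7 COL4A1 alone, 0 COL4A2 alone and 9 neither. Among the other cells 7 detected both, 30 COL4A1 alone, 2 COL4A2 alone and 23 neither. COL4A2 was thus detected in 61.1% of ectoderm-state cells with COL4A1 and in 0% of those without, against 18.9% and 8% in the other cells. Across cells, Spearman's rho between the chains was 0.66 over the 27 ectoderm-state cells and -0.04 over the 62 others, as a description. Median numbers of genes with a read were 5711 in ectoderm-state cells with COL4A1 and 5276 in those without, and 5856 and 5150 in the other cells, so the number of genes read moved with detection in both.

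**Figure D3:**
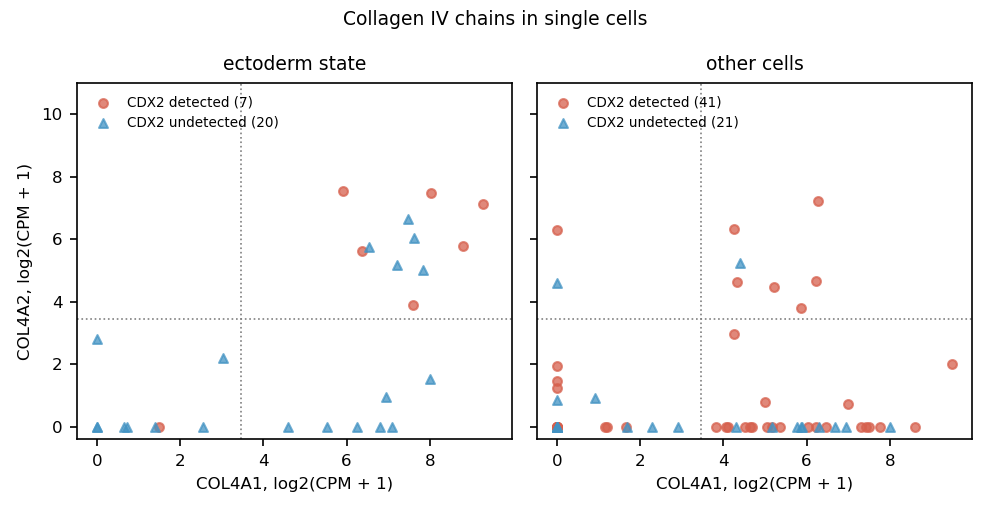
COL4A1 (x axis) against COL4A2 (y axis) per cell, both as log2(CPM + 1), for ectoderm-state and other cells. Each ectoderm-state cell that detected COL4A2 also detected COL4A1, and 30 of the other cells detected COL4A1 alone.

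Within the ectoderm state, collagen IV went with CDX2. COL4A2 was detected in 6 of 7 ectoderm-state cells with CDX2 (0 to 185 CPM, median 53.8) and in 5 of 20 without (0 to 98.2 CPM, median 0). COL4A1 was detected in 6 of 7 (1.82 to 625 CPM, median 194) and in 12 of 20 (0 to 257 CPM, median 59.99). With 7 cells in the smaller class these are values of those cells only, and no call was made. ITGA6 went the other way, at 1 of 7 and 11 of 20, and COL5A1 too, at 1 of 7 and 9 of 20. The 7 cells were 5 X09 and 2 X29 cells and the 20 were 9 and 11. The part of the prefix in these differences was not tested.

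COL18A1, the basement membrane collagen whose end fragment is endostatin, was detected in 11 of 27, 12 of 41 and 7 of 21 cells and met the rule in neither comparison. COL6A3, a chain of the microfibrillar collagen VI, was detected in 0 of 27 ectoderm-state and 7 of 62 other cells, also without a call. The other collagens were seen in few cells: COL13A1, COL17A1, COL22A1, COL25A1, COL6A1 and COL8A2 were each detected in at most 2 ectoderm-state and at most 4 other cells.

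Of the 7 laminin rows 1 met the rule between the layers, and of the 22 collagen rows 8. Over all gene rows 3.75% were higher and 3.47% lower, and with 7 rows 1 call is near that background. LAMB1, the beta1 chain shared by most early laminins, was detected in 26 of 27 ectoderm-state cells (2.72 to 997 CPM, median 496), in 39 of 41 CDX2-detected cells (6.86 to 893 CPM, median 229) and in 20 of 21 CDX2-undetected cells (1.06 to 638 CPM, median 215). The ectoderm-state mean of 478 ± 230 CPM was above the 245 ± 172 CPM of the other cells and fell just short of the 2-fold rule, with wide overlap. The CDX2-undetected cell at 638 CPM is the one with 1 mesoderm and 6 ectoderm markers that lay close outside the ectoderm rule. LAMA1, the alpha1 chain of the first embryonic laminin, was detected in 24 of 27 (0 to 754 CPM, median 221.4), 37 of 41 (0 to 620 CPM, median 168) and 17 of 21 cells (0 to 2558 CPM, median 189). The 3 classes did not differ by the rule, and the 2558 CPM came from a poor X29 cell with endothelial markers.

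LAMA5, the alpha5 chain that joins as basement membranes mature, was detected in 15 of 27, 21 of 41 and 7 of 21 cells, with means of 30.7 ± 57, 29.5 ± 37.9 and 30.3 ± 77.7 CPM. LAMC1, the gamma1 chain common to nearly all laminins, was detected in 8 of 27, 17 of 41 and 7 of 21 cells. With all cells, neither met the rule in either comparison. The highest LAMA5 values of the CDX2-undetected class, 342 and 108 CPM, came from cells with endothelial markers. The 342 CPM was in the poor X29 cell named above for LAMA1. Without the poor cells and those with endothelial markers, LAMA5 was called higher in CDX2-detected than in CDX2-undetected cells. LAMB4, whose gene neighbours LAMB1, was detected in 1 of 27 and 1 of 62 cells. LAMA3, an alpha chain of epithelial laminins, reached 10 CPM in 0 of 27 ectoderm-state cells and in 2 of 62 others, at 87.8 CPM and 1106 CPM, the higher value in that same poor cell.

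LAMA4, the alpha4 chain known from endothelial and mesenchymal laminins, was the 1 laminin that met the rule. It had no read in the 27 ectoderm-state cells and was detected in 9 of 41 CDX2-detected cells (0 to 313 CPM, median 0) and in 7 of 21 CDX2-undetected cells (0 to 308 CPM, median 0). Of the 16 detecting cells 4 were among the 5 with endothelial markers, and the call held without those. The cell at 313 CPM is the one just outside the ectoderm rule. Where scaling moved it into the ectoderm state the call ended, at a log2 ratio of -0.76 with CPM computed without mitochondrial genes and -0.41 with median-of-ratios size factors. The call also ended at a limit of 50 CPM, so it was lost in 3 of 16 alternatives.

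Every cell that detected LAMA1 also detected LAMB1, in 24 of 24 ectoderm-state and 54 of 54 other cells. Since 85 of the 89 cells detected LAMB1, this leaves little room for another outcome. LAMB1 was also detected in 2 of 3 ectoderm-state and 5 of 8 other cells without LAMA1, which had medians of only 3722 and 3009.5 genes with a read, against 5711 and 5673.5 in those with it. All 8 ectoderm-state cells with LAMC1, and 23 of the 24 other cells with it, detected LAMB1. In reverse, 18 ectoderm-state and 36 other cells had LAMB1 with LAMC1 under 10 CPM. How often a chain is detected depends on its level and on the length of its transcript, which was not at hand, so such shares do not give the ratio of the chains. All of LAMA1, LAMB1 and LAMC1 were detected in 29.6% of ectoderm-state cells (interval 13.8 to 50.2%), 39.02% of CDX2-detected cells (24.2 to 55.5%) and 33.3% of CDX2-undetected cells (14.6 to 56.97%), with intervals that overlapped. For LAMA5, LAMB1 and LAMC1 the shares were 22.2% (8.62 to 42.3%), 26.8% (14.2 to 42.9%) and 4.76% (0.12 to 23.8%). The last is 1 of 21 cells, and these intervals overlapped too.

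Among the integrins, ITGB1, the beta1 chain, was detected in 23 of 27 ectoderm-state cells (1.81 to 935 CPM, median 217), 39 of 41 CDX2-detected cells (0 to 1147 CPM, median 280) and 19 of 21 CDX2-undetected cells (0 to 1325 CPM, median 373). It met the rule in neither comparison. The layers differed instead in the alpha chains, which set the ligand. Of 8 alpha chains a median of 2 was detected per ectoderm-state cell and of 3 in each class of other cells.

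ITGA9, whose dimer with beta1 binds tenascin and other ligands, was detected in 1 of 27 ectoderm-state cells, at 39.6 CPM, in 26 of 41 CDX2-detected cells (0 to 249 CPM, median 25.5) and in 14 of 21 CDX2-undetected cells (0 to 291 CPM, median 31.8). The 1 ectoderm-state cell is again the cell just inside the class rule. The mean was 28.2-fold lower in the ectoderm state, and without that cell no ectoderm-state cell had a read.

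ITGA4, whose dimer with beta1 binds fibronectin and VCAM1, was detected in 2 of 27 ectoderm-state cells (0 to 176 CPM, median 0), in 22 of 41 CDX2-detected cells (0 to 268 CPM, median 14.6) and in 6 of 21 CDX2-undetected cells (0 to 156 CPM, median 0). Its mean was 2.74-fold lower in the ectoderm state than in the other cells, and 5.81-fold lower without the cell at 176 CPM. In X09 cells alone the log2 ratio was -0.50 and the call ended.

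ITGAV, the alpha chain of receptors for the RGD motif of fibronectin and vitronectin, was detected in 6 of 27 ectoderm-state cells (0 to 245 CPM, median 0), in 23 of 41 CDX2-detected cells (0 to 565 CPM, median 28.03) and in 12 of 21 CDX2-undetected cells (0 to 428 CPM, median 17.1). Its mean was 2.81-fold lower in the ectoderm state, with a log2 ratio of -0.77 and no call in X09 cells alone. ITGB5, a beta chain that pairs with alphaV, did not differ by the rule, at 19 of 27, 31 of 41 and 11 of 21 cells. Both were detected in 18.5% of ectoderm-state cells (interval 6.30 to 38.1%), 41.5% of CDX2-detected cells (26.3 to 57.9%) and 42.9% of CDX2-undetected cells (21.8 to 65.98%).

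ITGA6, the alpha chain of the main epithelial laminin receptors, was the 1 integrin higher in the ectoderm state. It was detected in 12 of 27 ectoderm-state cells (0 to 280 CPM, median 2.19), in 6 of 41 CDX2-detected cells (0 to 164 CPM, median 0) and in 8 of 21 CDX2-undetected cells (0 to 167 CPM, median 0). The mean was 2.44-fold higher than in the other cells, and the classes overlapped. Class means were 37.5, 9.40 and 25.3 CPM, so the difference lay mainly against the CDX2-detected cells. The call stood at the edge of the rule, since it ended when any 1 of its 12 detecting ectoderm-state cells was left out, the share difference then being 19.7 points. Its fold without the cell at 280 CPM was 1.85.

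ITGA1, the alpha chain of a receptor for collagen IV and laminin, was detected in 20 of 27, 21 of 41 and 14 of 21 cells, with means of 126 ± 122, 59.1 ± 81.6 and 79.3 ± 77.3 CPM, and met the rule in neither comparison. The remaining integrin chains were scarce. ITGA3 was detected in 4 of 27 and 4 of 62 cells, ITGB6 in 3 of 27 and 11 of 62, and ITGA2, ITGA8, ITGB3 and ITGB8 each in at most 3 ectoderm-state and at most 5 other cells.

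**Figure D4:**
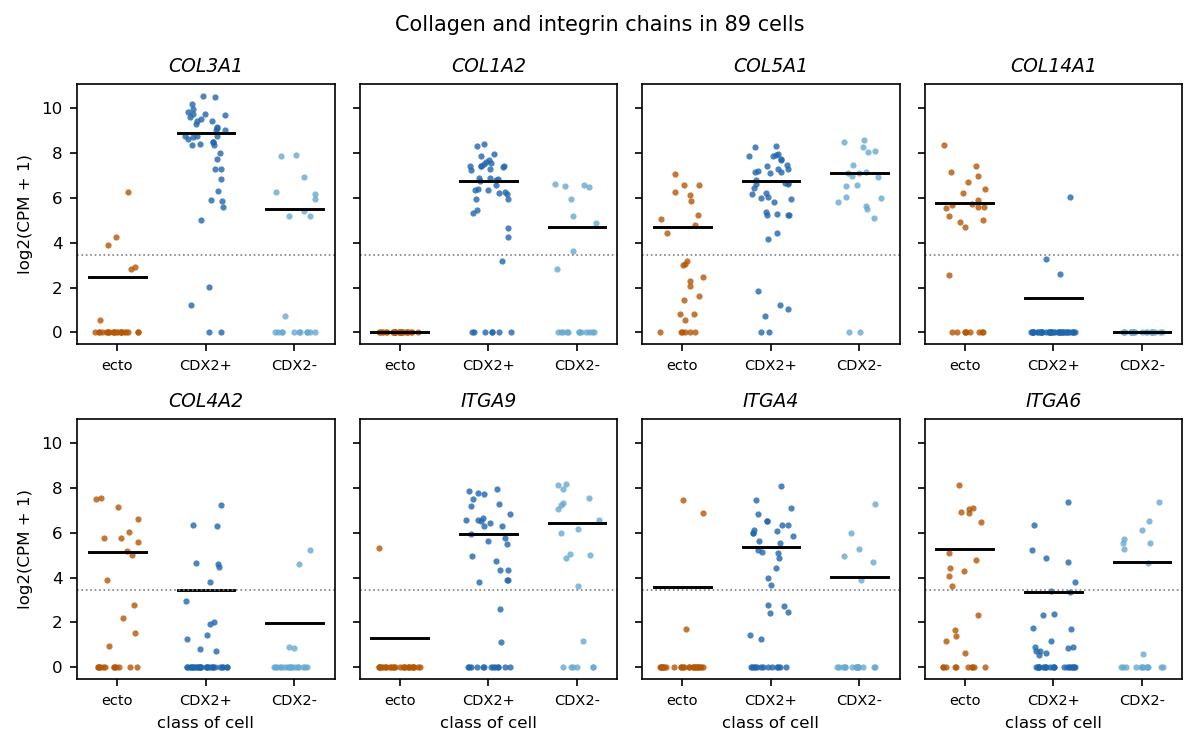
Level of selected chains in each of the 89 cells, as log2(CPM + 1), with points for single cells and a bar for the log2 of the class mean CPM + 1, in ectoderm-state, CDX2-detected other and CDX2-undetected other cells. Ectoderm-state cells are at 0 for COL1A2, while COL14A1 reads lie in the ectoderm state except for 1 detecting CDX2-detected cell and 2 other cells below 10 CPM.

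Among the dimers of beta1, those with alpha9, alpha4 and alphaV were detected in a smaller share of ectoderm-state cells than of either other class. The intervals of that with alpha1 overlapped between the classes. ITGA9 and ITGB1 were detected together in 3.70% of ectoderm-state cells (interval 0.0937 to 18.97%), 63.4% of CDX2-detected cells (46.9 to 77.9%) and 66.7% of CDX2-undetected cells (43.03 to 85.4%). ITGA4 and ITGB1 were together in 0 of 27 (interval 0 to 12.8%), 22 of 41 (53.7%, 37.4 to 69.3%) and 6 of 21 cells (28.6%, 11.3 to 52.2%). Only the last interval overlapped that of the ectoderm state. The 2 ectoderm-state cells with ITGA4 had ITGB1 at 7.74 and 9.91 CPM, just under the limit. ITGAV and ITGB1 were together in 22.2% (8.62 to 42.3%), 56.1% (39.7 to 71.5%) and 57.1% (34.02 to 78.2%). There the ectoderm-state interval overlapped both of the others. ITGA6 and ITGB1 were together in 40.7%, 14.6% and 38.1%, and ITGA1 and ITGB1 in 62.96%, 51.2% and 66.7%, with overlapping intervals.

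Nearly every cell with an alpha chain had beta1. In the other cells ITGB1 was detected in all 35 cells with ITGA1, all 28 with ITGA4, all 14 with ITGA6, all 40 with ITGA9 and all 35 with ITGAV. Since 58 of the 62 detected ITGB1 in any case, and the 4 without it had a median of 2516.5 genes with a read, these counts do not separate pairing from detection. In the ectoderm state ITGB1 was detected in 17 of 20 cells with ITGA1, in 11 of 12 with ITGA6 and in 0 of 2 with ITGA4. The 3 cells with ITGA1 counted without ITGB1 did have reads of it, at 5.52, 7.74 and 9.91 CPM. The last 2 of these are the cells with ITGA4, so these counts rest on the limit of 10 CPM.

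For the fibrillar trimers, both collagen I chains were detected in 0% of ectoderm-state cells (interval 0 to 12.8%), 58.5% of CDX2-detected cells (42.1 to 73.7%) and 28.6% of CDX2-undetected cells (11.3 to 52.2%). Both collagen V chains were detected in 7.41% (0.910 to 24.3%), 53.7% (37.4 to 69.3%) and 66.7% (43.03 to 85.4%). Collagen IV ran the other way, with both chains in 40.7% of ectoderm-state cells (22.4 to 61.2%), 14.6% of CDX2-detected cells (5.57 to 29.2%) and 4.76% of CDX2-undetected cells (0.12 to 23.8%), and the ectoderm-state interval overlapped both of the others.

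**Figure D5:**
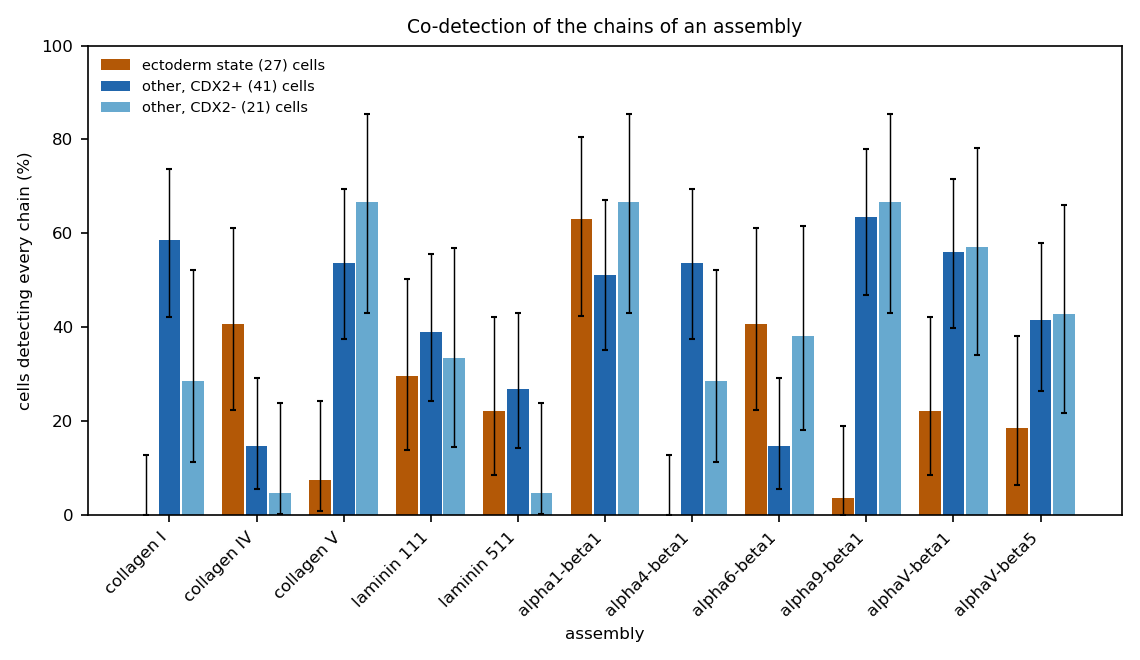
Share of cells (%) detecting every chain of an assembly at 10 CPM, by class, with exact 95% intervals for counting error. Collagen I, collagen V and the dimers of beta1 with alpha4 and alpha9 are low in ectoderm-state cells, the collagen IV alpha1 and alpha2 pair is highest there, and the laminins and alpha1-beta1 overlap between classes.

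Within the CDX2-detected cells, the levels of the 2 collagen I chains did not move together. COL1A2 was detected in 85.7% of cells with COL1A1 and in 69.2% of those without, with a Spearman's rho of -0.03 over 41 cells. In the CDX2-undetected cells the shares were 54.5% and 20%, with a rho of 0.25 over 21 cells. A rho near 0 in CDX2-detected cells was not particular to collagen I. It was -0.03 for LAMA1 with LAMB1 and -0.005 for ITGA1 with ITGB1, but 0.33 for ITGA9 and 0.37 for ITGAV with ITGB1. COL1A2 and COL3A1 were both detected in 32 of 41 CDX2-detected and in 5 of 21 CDX2-undetected cells. COL3A1 and ITGA4 were together in 21 of 41 and 5 of 21 cells.

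Set against CDX2-undetected cells, the CDX2-detected other cells had 3 of 43 members higher (COL1A2, COL3A1 and ITGA4), where 2.89% of all gene rows and 4.31% of the measured ones were, and 3 lower (COL12A1, COL26A1 and ITGA6), where 1.83% and 2.73% were. A further 21 met the rule in neither direction and 16 were detected in under 10% of both classes. The median log2 ratio was -0.42 over the 43 rows and -0.006 over all rows. Over measured rows alone it was -0.038 for the members and -0.043 for all genes, so measured members showed no shift as a set. Without the poor cells and those with endothelial markers, 3 were higher and 4 lower, but the members changed. ITGA4 was then no longer called, LAMA5 joined the higher members and COL2A1 the lower ones. Markers of several cell types moved with this split. Lower in CDX2-detected cells were KDR, EGFL7 and ERG, 3 of 10 measured endothelial markers. So were the neural marker NCAM1 (8 of 41 and 13 of 21 cells) and the mesoderm marker TWIST1. Higher were the paraxial mesoderm marker MEOX1 (11 of 41 and 1 of 21), the keratins KRT18 and KRT19, and HAND2 and ZEB1 of the lateral plate. Their part in the members' values was likewise not tested.

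COL3A1 averaged 471 ± 388 CPM in CDX2-detected cells (SD, n = 41 cells) and 43.9 ± 73.5 CPM in CDX2-undetected cells (n = 21), a 10.5-fold difference, and was detected in 37 of 41 and 9 of 21. Only the upper part of the CDX2-detected range, above 244 CPM, lay outside that of the CDX2-undetected cells. The call held in all 17 alternatives. COL1A2 averaged 108 ± 87.8 CPM and 24.7 ± 37.8 CPM, a 4.26-fold difference. That difference came from X09 cells: in X29 cells alone, 8 CDX2-detected against 10 CDX2-undetected, the log2 ratio was 0.27, and without 1 X29 CDX2-detected cell of 117 CPM the X29 means were 36.5 and 38.5 CPM and the call ended.

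ITGA4 averaged 40.3 ± 56.4 CPM in CDX2-detected and 15.5 ± 36.3 CPM in CDX2-undetected cells, 2.51-fold higher, or 4.37-fold without a CDX2-undetected cell at 156 CPM. Its call ended without the cells with endothelial markers, where the log2 ratio was 1.07, and in X09 cells alone, at 0.80. None of the 5 cells with endothelial markers had an ITGA4 read, and 4 of them are in the CDX2-undetected class.

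COL12A1, a fibril-associated collagen of dense connective tissue, was detected in 5 of 41 CDX2-detected cells (0 to 114 CPM, median 0) and in 9 of 21 CDX2-undetected cells (0 to 213 CPM, median 0). The mean was 5.07-fold lower in the CDX2-detected cells and 8.24-fold lower without the 114 CPM cell, which is the cell just outside the ectoderm rule. The call held in all 17 alternatives, including without the endothelial-marker cells, of which 3 of 5 detected it.

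COL26A1 and ITGA6 were weaker. COL26A1 was detected in 3 of 41 CDX2-detected cells (0 to 24.6 CPM) and in 6 of 21 CDX2-undetected cells (0 to 88.1 CPM), 3.30-fold lower, and its call ended without any 1 of those 6, with the share difference at -17.7 points. ITGA6 was 2.53-fold lower, and without 1 CDX2-undetected X29 cell at 167 CPM it was 1.85-fold lower and the call ended. Without the CDX2-detected cell at 164 CPM, again the cell just outside the ectoderm rule, it was 4.03-fold lower.

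The 5 cells with endothelial markers are described by their own values. All 5 detected COL5A1 (36.4 to 384 CPM), ITGAV (93.01 to 215 CPM), ITGB1 (157 to 572 CPM) and LAMB1 (75.3 to 269 CPM), chains that were also common elsewhere, being detected in 19, 12, 19 and 20 of the 21 CDX2-undetected cells, 4 of which are among these 5. LAMA4 was detected in 4 of 5, COL13A1, a transmembrane collagen, in 3 of 5, and COL1A1, COL4A2 and COL18A1 in 0 of 5. COL13A1 was detected in only 1 other cell of the 89. With 5 cells, 1 of them poor, no call was made.

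Most genes that make, modify or bind these chains were not called. Of 16 measured genes of collagen processing, 1 was higher and 1 lower in the ectoderm state than in the other cells. Over all measured gene rows, 5.31% were higher and 4.91% lower, and with lists of 9 to 20 genes 1 call in a direction is near that background. LOXL1, an oxidase that cross-links collagen and elastin, was detected in 23 of 27 ectoderm-state and 24 of 62 other cells (78.1 ± 61.7 and 15.5 ± 23.5 CPM). ADAMTS3, a protease that trims procollagen, was detected in 7 of 27 and 40 of 62 cells (15.3 ± 36.2 and 67.7 ± 102 CPM). PPIB and P4HB, which help chains to fold, were at 666 and 638 CPM in ectoderm-state cells and at 587 and 452 CPM in the others.

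Of 11 measured basement membrane partners, 0 were higher and 2 lower in the ectoderm state. NID1, nidogen, which links laminin to collagen IV, was detected in 1 of 27 ectoderm-state and 22 of 62 other cells, and EGFLAM, a dystroglycan ligand, in 0 of 27 and 14 of 62. NID1 and COL4A2 thus differed in opposite directions between the classes, while COL4A1 was not called. FBLN1 and FBLN2, fibulins, met the rule in neither direction, at 94.3 and 61.3 CPM in ectoderm-state cells and at 224 and 83.5 CPM in the others.

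Of 9 other matrix receptors, 2 were higher in the ectoderm state. DAG1, dystroglycan, a laminin receptor, was detected in 24 of 27 ectoderm-state and 27 of 62 other cells (101 ± 62.7 and 20.2 ± 39.4 CPM), and the glypican gene GPC1 in 24 of 27 and 19 of 62. DDR2, a receptor kinase for fibrillar collagen, was the 1 that was lower, at 1 of 27 and 25 of 62 cells (2.18 ± 11.2 and 34.4 ± 54.7 CPM). CD151, a tetraspanin that binds laminin-binding integrins, and the syndecan SDC2 met the rule in neither direction.

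Of 20 integrin adaptors, 1 was higher in the ectoderm state: FERMT1, the kindlin of epithelia, at 212 ± 172 CPM in ectoderm-state and 43.5 ± 81.1 CPM in other cells, detected in 24 of 27 and 36 of 62. ITGB1BP2, melusin, was the 1 that was lower (1 of 27 and 24 of 62 cells), and the focal adhesion gene ZYX was at 211.2 and 214 CPM. Of 9 other integrin ligands, FN1, fibronectin, was higher at 604 ± 433 CPM in ectoderm-state and 241 ± 243 CPM in other cells, as was THBS1, thrombospondin, while TGFBI was lower (15 of 27 and 49 of 62 cells). CYR61 and CTGF met the rule in neither direction.

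The same lists were read in the CDX2 comparison, where 4.31% of all measured gene rows were higher and 2.73% lower. Of 15 measured genes of collagen processing 1 was higher, of 10 basement membrane partners 2 were higher and 2 lower, of 9 other matrix receptors 2 were higher, of 19 integrin adaptors 1 was higher and 1 lower, and of 7 other ligands 1 was lower. CRTAP, a partner of collagen prolyl hydroxylase, was higher in CDX2-detected than in CDX2-undetected cells (20 of 41 and 5 of 21). NID1 (19 of 41 and 3 of 21) and FBLN1 (35 of 41 and 10 of 21) were higher, whereas the SPARC-related SMOC1 (4 of 41 and 8 of 21) and SMOC2 (0 of 41 and 8 of 21) were lower. DDR2 (20 of 41 and 5 of 21), SDC4 (17 of 41 and 2 of 21) and PARVA (11 of 41 and 0 of 21) were higher, and LIMS1 (14 of 41 and 16 of 21) and CTGF (19 of 41 and 17 of 21) were lower. CDX2-undetected cells also held the higher level of endothelial markers given above, whose part in these values was not tested.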

How the data were processed

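The authors deposited 1 table of unnormalised read counts, with a column for each of 89 cells. Per the submitters' processing notes it was made with HISAT2 2.1.0, the GRCg6a build and featureCounts. Settings were not given in the sources used here. No molecular identifiers are part of the labelled protocol, so copies of 1 molecule can be counted repeatedly. The 3 spike-in rows, with 5.99% of all reads, were left out. CPM was computed over the 13823 gene rows, of which 3371 carried Ensembl identifiers without a symbol and could not be members. A gene was detected at 10 CPM or more with at least 1 read, and "measured" at 10% of the cells of either class. Ratios add 1 CPM to each mean, which understates differences of low genes. No doublet caller was run. Chains without a row of their own, such as ITGA5, LAMB2, COL6A2 and ITGB4, were not analysed here. No lengths were at hand, so the planned levels per length were not computed, and levels of different genes are not compared.

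Named were members called in either comparison or detected in at least 50% of a class, and their partner chains. From each pathway list the called genes were named, at most 3 per direction, with at most 2 others of highest mean. Members, lists and classes were chosen with earlier results of these data known. All 43 symbols matched the RefSeq gene table. Shares have exact Clopper-Pearson intervals at 95%, and the limit for a count of 0 is 3 counts of the total. Python 3.11.15, numpy 2.4.6, pandas 2.3.3, scipy 1.17.1 and matplotlib 3.10.9 were used.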

Additional observations from a re-analysis of the deposited data

How the results depend on the processing

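No paired analysis was possible because the cells form 1 pooled sample with no replicate numbers shared between groups. Alternatives were planned except for leaving out poor cells and cells with endothelial markers together, which was added after seeing the data. No called member changed sign under any alternative, but many alternatives could not change it. Other detection limits (with the classes kept), a stricter fold, no filter on low genes and no prefix condition leave the ratio as it is. A larger pseudocount keeps its sign, and the rule itself requires the same direction in X09 and in X29 cells. Of the planned values of called members 247 kept the call and 44 lost it, mostly COL9A1, ITGA4, ITGA6 and COL26A1. Dropping the filter or the prefix condition cannot end a call, so those values were kept in advance. The ectoderm share was 15.7% at a limit of 50 CPM and 41.9% in X29 cells alone. Members higher in the ectoderm state numbered 2 when all 3 markers were required and 2 to 5 with any 1 cell left out. With CDX2, members higher numbered 2 to 5 with any 1 cell left out, and members lower numbered 1 at a limit of 1 read, 1 in X09 cells alone, 6 in X29 cells alone and 1 with a pseudocount of 10 CPM. Of the planned assembly shares 388 stayed within their intervals and 41 did not. At 50 CPM, shares of ectoderm-state cells were 0% for collagen V, 11.1% for the laminin of LAMA1, 7.41% for that of LAMA5, 18.5% for alpha6-beta1 and 0% for alpha9-beta1. In CDX2-detected cells at that limit they were 14.6% for collagen I, 2.44% for collagen IV, 34.1% for collagen V, 9.76% for either laminin, 31.7% for alpha4-beta1, 4.88% for alpha6-beta1, 39.02% for alpha9-beta1, 36.6% for alphaV-beta1 and 14.6% for alphaV-beta5. In CDX2-undetected cells they were 4.76% for collagen I, 0% for collagen IV, 42.9% for collagen V, 9.52% for the LAMA1 laminin, 0% for the LAMA5 laminin and 9.52% for alpha4-beta1. At a limit of 1 read, collagen I was at 80.5% of CDX2-detected cells, and alpha6-beta1 at 62.96% of ectoderm-state and 48.8% of CDX2-detected cells. In X09 cells alone, alpha6-beta1 was at 21.4% and alpha9-beta1 at 0% of ectoderm-state cells, and collagen I at 9.09% and the LAMA5 laminin at 0% of CDX2-undetected cells. In X29 cells alone, alpha6-beta1 was at 61.5% of ectoderm-state cells. In CDX2-detected X29 cells, collagen IV was at 0%, collagen V at 25%, alpha9-beta1 at 37.5%, alphaV-beta1 at 37.5% and alphaV-beta5 at 25%, and in CDX2-undetected X29 cells collagen IV was at 0%. With each cell thinned to 328645 reads, alpha9-beta1 was at 0% of ectoderm-state and the LAMA5 laminin at 0% of CDX2-undetected cells; alpha9-beta1 was also at 0% of ectoderm-state cells with all 3 markers required. With any 1 cell left out, shares ran from 0 to 3.85% for alpha9-beta1 in ectoderm-state cells, and the lowest were 0% for collagen IV and the LAMA5 laminin in CDX2-undetected cells. The cause of these shifts was not tested. Most chains lie near 10 to 100 CPM, so joint detection depends on the limit, and a chain not detected may be present at a lower level. The 21 and 7 cells of the smaller classes limit the precision further.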
